A study of Mus musculus with 8 samples.

Results

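Among the RNA:DNA hybrid peaks of *Rtel1*-proficient mouse embryonic fibroblasts (MEFs), 1937 regions held a peak both with and without induced RNaseH1 and had no peak in either list of *Rtel1*-deleted cells. The 4 peak lists were merged wherever peaks overlapped by at least 1 bp, which gave 194961 union regions, and the 1937 regions were those with a peak of both GFP lists and of neither Cre list. They made up 0.994% of the union. The regions were therefore selected on the peak calls themselves. All cells, controls included, carried floxed *Rtel1* and WT RNaseH1-GFP under doxycycline control (*Rtel1* F/F; WT RNH1-GFP). Adenovirus expressing GFP left *Rtel1* in place, and adenovirus expressing Cre-GFP was used to delete it. After 48 h, doxycycline at 2 µg/ml or mock treatment followed for another 48 h. The control conditions are named GFP mock and GFP DOX, and those of deleted cells Cre mock and Cre DOX. Each had 1 library, made from 3 pooled immunoprecipitations, so there is no replicate error for any difference between them. The absence of a Cre peak chose these regions and is a description throughout, with no test. Shares carry 95% confidence intervals by the exact Clopper-Pearson method, which cover counting error only.

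R-loops form where RNA hybridises to 1 strand of the DNA and leaves the opposite strand unpaired. They arise often at promoters and in transcribed, GC-rich sequence, and the displaced strand can fold into a G-quadruplex (G4) where it is rich in guanine. RTEL1 is a helicase that unwinds G4s and telomeric loops, and RNaseH1 degrades the RNA strand of the hybrid. In DRIP-seq the S9.6 antibody pulls down hybrids from DNA cut with restriction enzymes, and a peak marks where the recovered DNA exceeds the local background. Each peak has a score, which is its −log10 q-value multiplied by 10. The score is not normalised between libraries. Regions were ranked by its percentile within a list, which is the percentage of that list's peaks that score no higher. Raw scores are also given, with a fixed score limit for both GFP lists. Minimums of the −log10 q-value of 2 and 5 were also applied to every list. Such fixed limits are not adjusted for differences between libraries.

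Regions were ranked by the lower of their percentiles in GFP mock and GFP DOX. The sequences shared by both GFP peaks are shown for the 5 highest-ranked regions within 1 kb of a start site of a protein-coding gene, and then for the 2 highest-ranked regions of all, so that their sequence can be read beside the values given for them. They are not a sample of the 1937 regions. Capitals mark stretches with a G4 predicted by G4Hunter, and all are the plus strand of mm10.
Skiv2l, chr17:34846335-34846465: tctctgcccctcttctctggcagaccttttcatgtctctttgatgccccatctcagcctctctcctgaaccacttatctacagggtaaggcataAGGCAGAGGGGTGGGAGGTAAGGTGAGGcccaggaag
Atp5h and Kctd2, chr11:115420149-115420339: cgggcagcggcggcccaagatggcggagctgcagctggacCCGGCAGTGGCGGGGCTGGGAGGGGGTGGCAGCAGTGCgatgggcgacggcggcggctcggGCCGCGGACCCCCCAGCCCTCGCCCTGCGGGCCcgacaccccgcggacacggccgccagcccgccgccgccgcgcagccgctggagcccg
Phf24, chr4:42933927-42934034: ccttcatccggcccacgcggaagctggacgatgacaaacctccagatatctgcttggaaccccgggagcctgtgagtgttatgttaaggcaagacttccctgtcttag
Aloxe3, chr11:69134425-69134518: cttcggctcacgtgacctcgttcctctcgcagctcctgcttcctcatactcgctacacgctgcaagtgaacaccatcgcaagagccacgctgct
Plpp7, chr2:32094869-32095168: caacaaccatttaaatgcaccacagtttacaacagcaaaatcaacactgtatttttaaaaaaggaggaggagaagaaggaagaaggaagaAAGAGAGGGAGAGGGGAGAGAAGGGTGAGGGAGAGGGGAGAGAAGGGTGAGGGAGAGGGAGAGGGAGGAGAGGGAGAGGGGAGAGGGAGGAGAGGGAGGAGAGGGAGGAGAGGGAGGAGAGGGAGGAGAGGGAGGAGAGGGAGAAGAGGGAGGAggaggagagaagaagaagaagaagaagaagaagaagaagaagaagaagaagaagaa
intergenic, chromosome 5, chr5:26343655-26343761: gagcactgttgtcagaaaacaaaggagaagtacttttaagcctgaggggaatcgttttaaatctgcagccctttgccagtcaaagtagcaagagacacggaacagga
Col28a1, chr6:8165554-8165666: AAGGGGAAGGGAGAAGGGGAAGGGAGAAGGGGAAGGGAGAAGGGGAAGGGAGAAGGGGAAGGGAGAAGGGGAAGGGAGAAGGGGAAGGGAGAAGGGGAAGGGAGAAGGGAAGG

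The *Col28a1* sequence is G4-predicted over all of its 113 bases and consists of A and G alone on this strand. That of *Plpp7*, of which the central 300 of 340 bases are shown, has 154 G4-predicted bases in a purine-rich repeat. At *Atp5h* and *Kctd2* the sequence is that of a GC-rich promoter, with a GC content of 82.2%. The sequences shown for *Phf24*, *Aloxe3* and the intergenic region hold no predicted G4 and have GC contents of 54.6%, 58.5% and 44.9%. The whole *Aloxe3* region, 344 bp wide, does hold a predicted G4.

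Of the 24894 union regions with a peak in both GFP lists, 7.78% had no Cre peak. When only the GFP peaks were merged, so that Cre peaks did not widen the regions, there were 24514 regions with peaks of both GFP lists, of which 7.90% (95% CI 7.57 to 8.25) had no Cre peak. The members were the same 1937 regions either way. The mirrored class, with a peak in both Cre lists and none in either GFP list, held 7846 of 36015 regions, or 21.8%. The lists differ in size, from 60219 peaks in GFP DOX and 87613 in GFP mock to 91097 in Cre mock and 105081 in Cre DOX. They also differ in the length they cover, from 32.1 Mb in GFP DOX to 89.0 Mb in Cre DOX. The lists give no read totals, so library depth is unknown. With equal numbers of peaks in the lists there were 2362 regions without a Cre peak, or 11.9% (11.5 to 12.4) of GFP-shared regions. The part of depth, and that of list size in the mirrored class, was not tested.

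**Figure D1:**
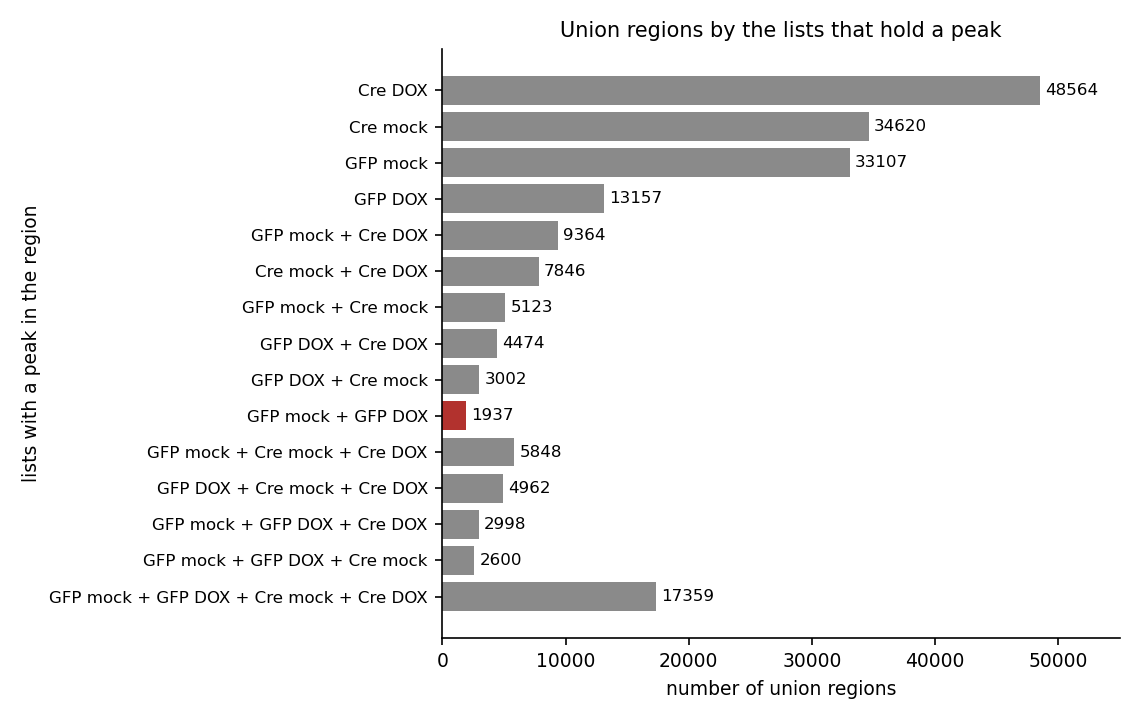
Number of union regions (x axis) for each combination of the 4 lists with a peak (y axis), with the regions held by both GFP lists alone in red. Of the 6 combinations of exactly 2 lists this has the fewest regions, 1937, against 9364 for GFP mock with Cre DOX.

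Regions held by both GFP lists were the fewest of the 6 pairs of lists. GFP DOX shared 4474 regions with Cre DOX alone and 3002 with Cre mock alone. GFP mock shared 9364 regions with Cre DOX alone and 5123 with Cre mock alone. A further 2998 regions were absent from Cre mock but present in Cre DOX, and 2600 were absent from Cre DOX but present in Cre mock. All 4 lists shared 17359 regions.

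The peaks of the 1937 regions scored about as high as the other peaks of their lists, and lower than those of GFP-shared regions with a Cre peak. The median score was 19 in GFP mock and 16 in GFP DOX, with ranges of 10 to 124 and 10 to 129. Over all peaks of each list the medians were 18 and 17. In the 22577 merged GFP regions that did have a Cre peak, the medians were 21 and 19. The peaks scored under 20 in both lists in 813 regions (42.0%), against 27.9% of the regions with a Cre peak. Median fold enrichment over the local background was 3.56 in GFP mock and 3.47 in GFP DOX, against 3.72 and 3.68. The median region was 406 bp wide (quartiles 260 and 577), against 847 bp, and the widest was 2426 bp. Together the 1937 regions covered 0.876 Mb. A single peak of each list made up 1928 of them. The GFP mock and GFP DOX peaks shared a median of 113 bp, or 37.4% of the region.

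**Figure D2:**
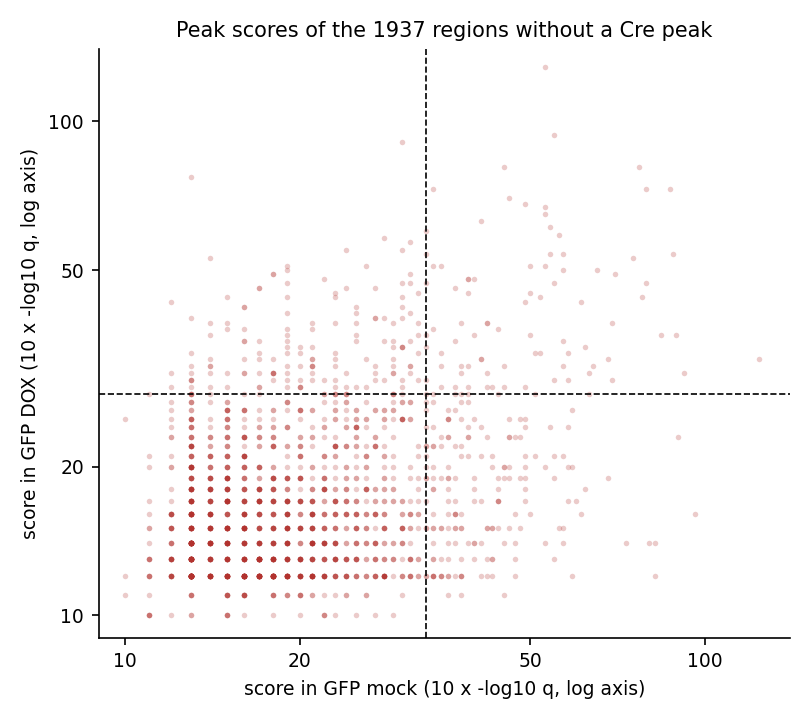
Score of the GFP mock peak (x axis) against that of the GFP DOX peak (y axis) in each of the 1937 regions, on log axes. Dashed lines mark the top decile of each list, 33 and 28, and 92 regions (4.75%) lie at or above both.

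Ranks in GFP mock and GFP DOX followed each other loosely. The percentile was higher in GFP mock for 1036 of the 1937 regions (53.5%, 51.2 to 55.7), against 49.5% of the regions with a Cre peak. Spearman's rho between the percentiles was 0.254 over the 1937 regions and 0.390 over those with a Cre peak, a description across regions of the same libraries. The GFP mock peak was in the top decile of its list in 265 regions and the GFP DOX peak in 256.

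The share without a Cre peak fell steeply with width and less so with score. In 5 classes of width with about equal numbers of regions, from narrow to wide, it was 20.5%, 11.7%, 5.60%, 1.59% and 0.183% of GFP-shared regions. In 5 classes of the lower score percentile it was 14.4%, 9.60%, 6.53%, 4.52% and 4.83%. The GFP lists held peaks as narrow as 106 and 107 bp. The narrowest Cre mock peak was 132 bp wide and the narrowest Cre DOX peak 213 bp. Both GFP peaks were narrower than any Cre DOX peak in 443 of the 1937 regions (22.9%, 21.02 to 24.8), against 5.58% of the regions with a Cre peak. They were narrower than any Cre mock peak in 145 regions (7.49%), against 1.44%. The rule of 1 bp also gives a wider region more sequence in which to overlap a Cre peak. The part of this and of the limits of width in the absence of a Cre peak was not tested.

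**Figure D3:**
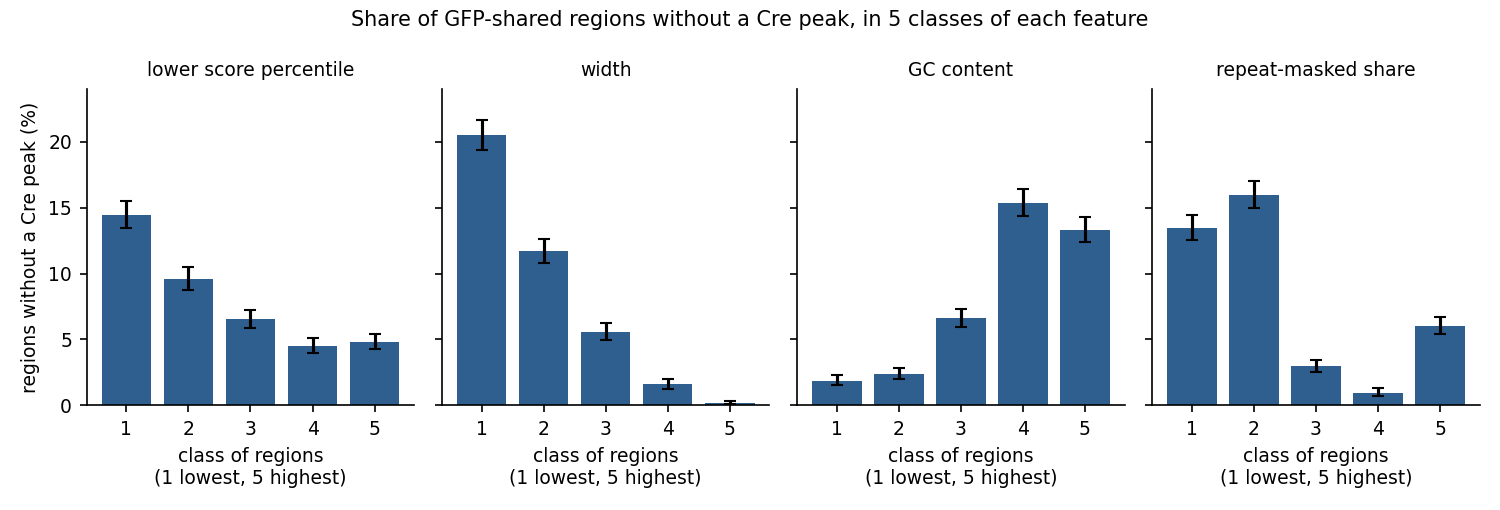
Percentage of the 24514 GFP-shared regions without a Cre peak (y axis), in 5 classes of the regions ordered by score percentile, width, GC content and repeat-masked share (x axes), with exact 95% intervals. The share is 20.5% in the narrowest class and 0.183% in the widest, and rises from 1.88% in the class with the lowest GC content to 15.3% in the fourth.

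The 1937 regions were richer in GC and poorer in repeats than the other GFP-shared regions. Their median GC content was 49.4% (49.0 to 49.8), against 41.3% (41.1 to 41.4) with a Cre peak and 41.6% in the mirrored class. The median repeat-masked share was 38.4%, against 96.1% with a Cre peak, and 10.7% of the regions had no masked base, against 3.21% with a Cre peak, 13.05% with a Cre mock peak only and 10.06% of all union regions. The order in GC content was turned among regions at most 50% masked, with medians of 52.7% without and 54.1% with a Cre peak. The regions with a Cre peak were themselves of different kinds. Those with a Cre mock peak only had a median GC content of 52.2% and a masked share of 18.6%, and those with a Cre DOX peak only had 40.3% and 98.3%. The regions absent from both Cre lists lay between these classes on both measures. Observed over expected CpG had a median of 0.182, against 0.217 with a Cre mock peak only and 0.126 with a Cre DOX peak only.

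Fewer of the 1937 regions were intergenic and more lay in genes than among the regions with a Cre peak. Promoters, within 1 kb of any annotated start site, held 421 regions (21.7%, 19.9 to 23.6), against 17.3% (16.8 to 17.8). Exons outside promoters held 155 regions (8.00%), against 4.52%, and introns 613 (31.6%), against 21.2%. Intergenic sequence held 748 regions (38.6%, 36.4 to 40.8), against 57.0% (56.3 to 57.6). Over all union regions the shares were 12.9% in promoters, 6.14% in exons, 30.7% in introns and 50.2% intergenic, so that the intron share of the 1937 regions was close to that of the union. Regions with a Cre mock peak only were more often in promoters (33.2%) and exons (10.9%) and less often intergenic (30.5%) than the 1937 regions. Coding sequence was overlapped by 14.1% of the regions, against 12.9%, with intervals that overlap. Averaged within 4 classes of width crossed with 4 of score percentile, the differences were 7.61 percentage points for promoters and −18.6 for intergenic sequence. The promoter difference depended on the threshold. It was 4.39 (2.55 to 6.35) over all scores, but 0.113 for the top decile of scores in every list, 1.12 where the GFP peaks overlapped by 50% of each, 0.928 with no Cre peak on the same restriction fragment, −0.0683 and −1.35 at −log10 q-values of at least 2 and 5, and −6.46 with top-decile GFP peaks and Cre peaks of any score, each with an interval that includes 0. Within classes it was 0.326, 4.79, 3.57, 4.60, 0.136 and −7.09 in the same order. The intergenic difference was −3.21 (−14.6 to 8.72) with a −log10 q-value minimum of 5 and −9.98 (−19.7 to 0.450) with top-decile GFP peaks, where it was 0.657 within classes.

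These differences depended on repeats. Among the 7769 GFP-shared regions of which at most 50% was repeat-masked, 1093 (14.1%, 13.3 to 14.9) had no Cre peak, against 844 of 16745 (5.04%, 4.71 to 5.38) of the more heavily masked. In the less masked class the share without a Cre peak was 9.37% (8.47 to 10.3) in promoters, 13.4% in exons, 23.5% (21.3 to 25.8) in introns and 18.05% (16.1 to 20.2) in intergenic sequence. Promoters therefore held a smaller part of the regions without a Cre peak than of those with one in this class, 33.2% against 52.6%, and intergenic sequence a larger part, 23.1% against 17.2%. In the more masked class the order was turned, with 12.6% in promoters and 4.06% in intergenic sequence. The regions without a Cre peak were narrower in both classes, with median widths of 444 bp against 845 bp in the less masked class and 366 bp against 847 bp in the more masked one.

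**Figure D4:**
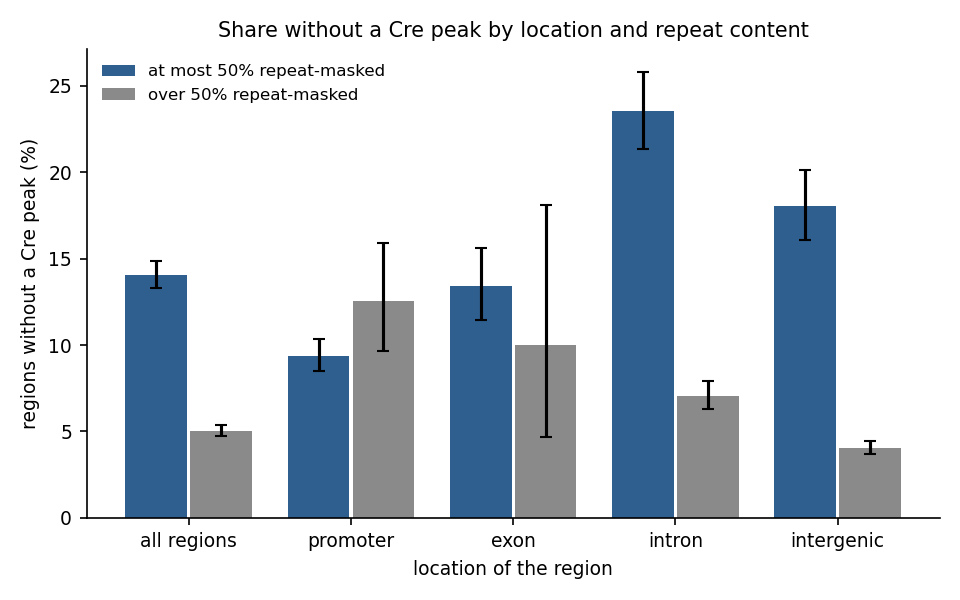
Percentage of GFP-shared regions without a Cre peak (y axis) by location (x axis), for regions at most 50% repeat-masked (blue) and over 50% (grey), with exact 95% intervals. In the less masked class introns are highest, at 23.5%, and promoters lowest, at 9.37%, while in the more masked class intergenic regions are lowest, at 4.06%.

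G4s were predicted with G4Hunter (window of 25 bases, absolute score of at least 1.5, both strands). They lay in 808 of the 1937 regions (41.7%, 39.5 to 43.9), against 32.3% (31.6 to 32.9) with a Cre peak, 26.2% in the mirrored class and 27.0% of all union regions. With a Cre mock peak only the share was 54.5%, and with a Cre DOX peak only it was 17.97%. The difference of 9.46 percentage points from the regions with a Cre peak was 16.6 within classes of width and score. The first of these depended on the threshold. It was −6.99 (−12.3 to −1.32) for the top decile of scores in every list, −15.4 (−25.3 to −3.54) with a −log10 q-value minimum of 5 and −21.3 (−28.2 to −11.9) with top-decile GFP peaks and Cre peaks of any score. With a −log10 q-value minimum of 2 (−0.0262, −3.51 to 3.56) and where the GFP peaks overlapped by 50% of each (−0.926, −4.26 to 2.58) no difference was detectable. Within classes the difference also moved, to 2.93 for the top decile, 9.04 and 0.373 at minimums of 2 and 5, 7.70 with overlap of 50% and −4.11 with top-decile GFP peaks and Cre peaks of any score. The difference was −17.9 (−2.75 within classes of width and score) among regions at most 50% masked, where 51.9% of the regions without a Cre peak and 69.7% of those with one held a predicted G4. In that class 10.9% (10.0 to 11.7) of regions with a predicted G4 and 20.7% (19.1 to 22.3) of those without had no Cre peak. Among regions over 50% masked the order was turned, at 8.40% (7.41 to 9.48) with and 4.35% (4.01 to 4.70) without a predicted G4. The difference in the share with a predicted G4 was −2.91 (−1.89 within classes) when the regions were measured with the Cre peaks joined to them. At a stricter G4Hunter score of at least 2 the shares were 21.5% and 19.6%, and with 4 runs of at least 3 G or C and loops of 1 to 7 bases they were 21.01% and 20.3%. The differences were 1.92 (0.0666 to 3.87) and 0.695 (−1.14 to 2.64), and within classes of width and score 8.91 and 7.48.

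Short tandem repeats (perfect repeats of a unit of up to 6 bases over at least 24 bases) lay in 13.8% of the 1937 regions and 12.9% of those with a Cre peak. Repeats of AC were in 91 regions (4.70%, 3.80 to 5.74), against 2.34% with a Cre peak and 3.18% of all union regions. Runs of A were in 5 regions (0.258%, 0.0839 to 0.601), against 3.45% with a Cre peak, 0.918% in the mirrored class and 1.02% of all union regions. At least 2 tandem copies of the telomeric unit TTAGGG, on either strand, were in none of the 1937 regions, which allows a share of up to 0.190%, and in 0.332% of the regions with a Cre peak and 0.0708% of all union regions. Of the 75 regions with a Cre peak that held them, 73 had a peak in both Cre lists. All these shares of repeats were counted by region, without adjustment for width. The 1937 regions covered 0.876 Mb, against 25.4 Mb with a Cre peak and 131 Mb for all union regions. The shares therefore do not show a lack or an excess of repeats for the length covered. Matches are given on the mm10 sequence and say nothing of the structure in cells.

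How far the absent Cre peak was varied widely. The nearest peak of either Cre list was a median of 2073 bp away (quartiles 515 and 7707 bp). It lay within 1 kb of 723 regions (37.3%, 35.2 to 39.5) and more than 50 kb from 32 (1.65%). The median distance was 4363 bp to Cre mock and 5005 bp to Cre DOX. Hybrids were recovered on restriction fragments. A region across a cut site was given the whole stretch of fragments that it overlapped, which is called its fragment throughout. A Cre peak lay on the same predicted fragment as 693 of the regions (35.8%, 33.6 to 38.0), leaving 1244 regions without one. The fragments of the 1937 regions, so defined, had a median of 2041 bp (quartiles 1244 and 3140). The median was 2129 bp for regions with a Cre peak and 343 bp for single fragments of the genome.

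**Figure D5:**
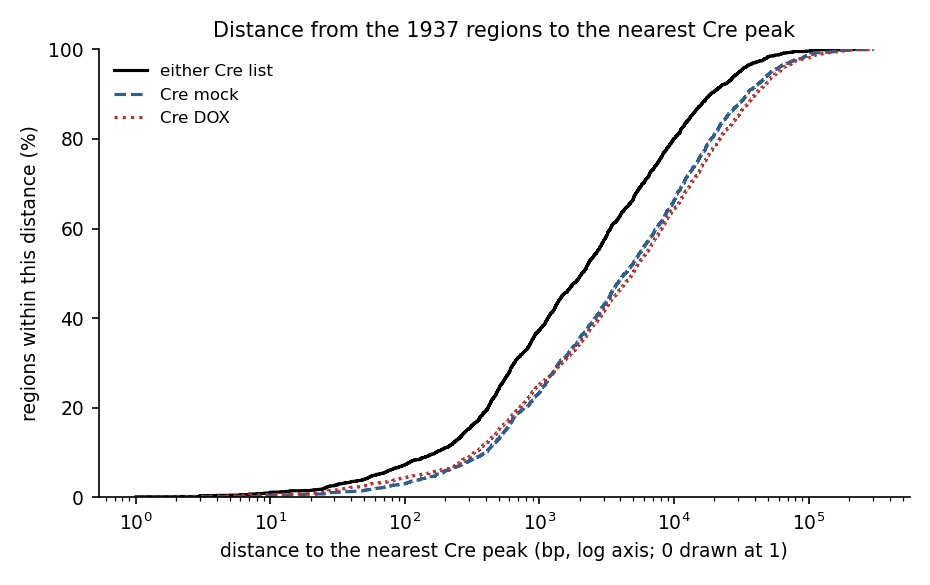
Cumulative percentage of the 1937 regions (y axis) within a given distance of the nearest peak of either Cre list, of Cre mock and of Cre DOX (x axis, bp, log scale). A Cre peak lies within 1 kb of 37.3% of the regions and within 10 kb of 80.1%.

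The rule of 1 bp left some regions at its edge. Of the 1937 regions, 77 had a Cre peak within 50 bp, and 105 regions with a Cre peak overlapped it by under 50 bp. Just inside were an intronic region of *Ralb* (a small GTPase) on chromosome 1 (119492105 to 119492554) and an intergenic region on chromosome 6 (69783086 to 69783520), which both touched a Cre DOX peak without overlap. A promoter region of *Tspoap1* on chromosome 11 (87764159 to 87764763) lay 1 bp from a Cre mock peak. Just outside were an intergenic region on chromosome X with an overlap of 1 bp, a promoter region of *Cdh13*, which encodes a cadherin, with 2 bp, and a promoter region of *Pcolce*, which encodes an enhancer of procollagen processing, with 3 bp. Scores of these 6 regions were between 12 and 28 in both GFP lists.

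The highest-ranked region was intergenic (chromosome 5, 26343606 to 26343780) and scored 87 (6.86-fold) in GFP mock and 73 (6.65-fold) in GFP DOX. It was 11725 bp from the nearest start site, and Cre mock had its nearest peak 6308 bp away and Cre DOX 6260 bp away. The next lay in an intron of *Col28a1*, a collagen gene, on chromosome 6 (8165119 to 8165704), with scores of 79 and 73. Both Cre lists had their nearest peak over 14 kb away. An intron of *Ablim1*, which encodes an actin-binding LIM protein, held the fourth (chromosome 19, 57139242 to 57139549), with scores of 88 and 54. There a Cre DOX peak of score 12 lay 767 bp away, on the same restriction fragment. Of the 10 highest-ranked regions 7 were intergenic, 2 intronic and 1 in a promoter, and 8 were under 400 bp wide.

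Among promoters of protein-coding genes the highest rank was that of *Skiv2l*, which encodes the RNA helicase of the Ski complex that feeds RNA to the cytoplasmic exosome. The region (chromosome 17, 34846332 to 34846793) overlapped coding exon sequence and scored 65 (4.84-fold) in GFP mock and 50 (4.67-fold) in GFP DOX. A Cre mock peak of score 19 was 905 bp away. The region shared by the promoters of *Atp5h*, a subunit of mitochondrial ATP synthase, and *Kctd2* (chromosome 11, 115420106 to 115420357) scored 41 and 33. It was flanked by a Cre DOX peak of score 23 at 94 bp and a Cre mock peak of score 13 at 168 bp. At *Phf24* (chromosome 4, 42933922 to 42934068) the scores were 39 and 48, and no Cre peak lay within 13 kb.

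Regions in other promoters differed as widely in their surroundings. *Aloxe3*, which encodes an epidermal lipoxygenase, scored 37 and 29 (chromosome 11, 69134402 to 69134745), with a Cre mock peak 1180 bp away. *Plpp7* scored 35 and 29 (chromosome 2, 32094827 to 32095288), with the nearest Cre peak at 6315 bp. *Lhfpl2* scored 34 and 51 (chromosome 13, 94135340 to 94135457), and its nearest Cre peak was at 8369 bp. *Psmb5*, which encodes a catalytic subunit of the proteasome, scored 51 and 28 at a site also within 1 kb of *Mir686* (chromosome 14, 54617639 to 54617779). *Wnt3a*, which encodes a secreted Wnt ligand, scored 32 and 37 (chromosome 11, 59290501 to 59290867). The promoters of *Tprkb*, a subunit of the KEOPS tRNA-modifying complex, and *Nat8f1* shared a region with scores of 32 and 34 (chromosome 6, 85915522 to 85915899).

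In all, 1255 annotated genes held 1 of the regions in the gene or within 1 kb of a start site, of which 1012 were protein-coding. A Cre peak lay elsewhere in, or within 1 kb of, 935 of the 1012, so that 77 genes had no Cre peak at all. Promoters of 367 protein-coding genes held a region, of 3302 with a GFP-shared region. A Cre peak lay in another stretch of the promoters of 230 of the 367. Taken over whole promoters, 242 of the 4078 protein-coding promoters with a peak in both GFP lists had none in either Cre list. In the mirrored direction, 557 protein-coding promoters had a peak in both Cre lists and none in either GFP list.

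Few genes held several regions. Of the 1012 protein-coding genes 920 had 1, 81 had 2, 8 had 3, 2 had 4 and 1 had 6. The gene with 6 was *Gm20388*, annotated over 4434882 bp of chromosome 8 and across other genes such as *Cdk10*, with 50 GFP-shared regions. *Foxp4*, which encodes a forkhead transcription factor, had 4 of its 6 GFP-shared regions without a Cre peak, with scores of 12 to 18 in GFP mock and 12 to 19 in GFP DOX and a Cre peak within 500 bp of each. *Mdga1*, which encodes a cell-surface immunoglobulin protein, had 4 of 5, of which 2 lay at start sites. *Card10*, a scaffold of NF-κB signalling, had 3 of 6 over coding exons, and *Col5a1*, a fibrillar collagen gene, had 3 of 6 within introns. *Rap1gap2*, which encodes an activator of GTP hydrolysis by Rap1, had all of its 3. The share of genes with a GFP-shared region that also held a region without a Cre peak rose with gene length, from 10.0% below 10000 bp to 32.3% at 500 kb or more. The longer genes also held more GFP-shared regions, with a median of 3 per gene in the longest class and 1 in the other classes.

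Groups of genes were set beside all protein-coding genes, of which 1012 of 5783 with a GFP-shared region (17.5%) held a region without a Cre peak. Of 36 collagen and matrix genes 3 of 14 did, namely *Col5a1*, *Col6a2* (collagen VI) and *Eln* (elastin), and none in a promoter. The *Eln* region scored 45 in GFP mock but 11 in GFP DOX, and that of *Col6a2* 13 and 16. Of 39 genes of actin, tubulin and adhesion 5 of 26 did, among them *Msn* (moesin, 18 and 17), *Actn1* (alpha-actinin, 22 and 13), *Tuba1c* (an alpha-tubulin, 13 and 16) and *Pxn* (paxillin, 13 and 14). Each of these genes also held a Cre peak. Of 12 fibroblast markers 1 of 6 did, *Pdgfrb*, the receptor for PDGF, with scores of 27 and 16. Of the markers of other cell types none of 4 epithelial genes had a GFP-shared region, while of 3 blood markers 1 of 2 held a region without a Cre peak, *Spi1*, a blood cell factor (49 and 19), and of 2 endothelial markers 1 of 1, *Pecam1*, an adhesion molecule (14 and 17). A peak gives no level of expression, so these markers do not show which cells were present.

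Genes of DNA replication and checkpoints held regions at 3 of 10 with a GFP-shared region, out of 46. An intron of *Rpa1*, a subunit of the single-strand binding protein RPA, scored 31 and 32 (chromosome 11, 75329347 to 75329744), with no Cre peak within 8 kb. The promoter of *Rrm1*, the large subunit of ribonucleotide reductase, scored 21 and 39 (chromosome 7, 102441684 to 102442372), and that of *Mcm6*, a subunit of the replicative helicase, 32 and 13 (chromosome 1, 128359470 to 128359833). Their nearest Cre peaks were 3187 and 10170 bp away. Of 38 genes for factors that process R-loops and G4s 1 of 12 did, *Ddx41*, an RNA helicase gene, with scores of 11 and 16 and a Cre mock peak 58 bp away. Of 25 p53 response genes 1 of 7 did. This was *Gadd45a*, a stress-response gene, whose promoter region (chromosome 6, 67036754 to 67037173) scored 27 and 16 and lay 24084 bp from the nearest Cre peak. Of 28 immediate early genes 1 of 16 did, the promoter of *Klf4*, a zinc finger factor, with 13 in both lists.

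Gene families were counted in the same way, with no test of a difference between them. None of the 30 genes for cytosolic ribosomal proteins with a GFP-shared region held a region without a Cre peak, and replication-dependent histone genes had no GFP-shared region. Homeobox, T-box, Sox and Fox factors held one at 11 of 54, among them *Sox30* (39 and 21), *Lhx2* (24 and 24) and *Foxj1* (22 and 48). Zinc finger genes named Zfp held one at 11 of 93, with *Zfp831* (38 and 28) and *Zfp334* (37 and 28) ranked highest, and *Zfp423* at its promoter (23 and 44). Odorant and vomeronasal receptors did at 6 of 80. Nuclear non-coding RNA genes did at 1 of 9. This was *Airn*, the imprinted antisense RNA of the *Igf2r* locus, near whose start a region scored 30 and 16, with the nearest Cre peak 7704 bp away. Of the 230 protein-coding genes of 500 kb or more, 63 of 195 did (32.3%). In this class introns of *Fgfr2*, a fibroblast growth factor receptor (52 and 44), *Ctnna2*, a neuronal catenin (31 and 36), and *Fgf14* (49 and 25) held a region. The *Fgfr2* region also lay within another gene, *Btbd16*. *Cacna2d3*, a calcium channel subunit gene, held a region at *Gm23999*, a gene inside it (39 and 32).

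The widest regions rested on peaks of unequal width. On chromosome 13 a region of 2426 bp (95593262 to 95595687) was built from a GFP mock peak of 1872 bp and more than 1 GFP DOX peak, of which the highest-scoring was 344 bp wide. An intronic region of *Dlgap1*, a postsynaptic scaffold gene, was 1971 bp wide in GFP mock and 292 bp in GFP DOX, with scores of 57 and 21. It was also far from Cre peaks, with the nearest 32547 bp away. The region at *Gm49499* had the reverse order, with 285 bp in GFP mock and 1933 bp in GFP DOX.

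Chromosomes differed in the share of GFP-shared regions without a Cre peak. It was highest on chromosome 9 (13.6%, 11.2 to 16.2) and chromosome 12 (13.4%, 10.2 to 17.1) and lowest on X (2.79%, 2.18 to 3.52) and 3 (4.41%, 3.68 to 5.24). Chromosome 5 had the most regions, 192, and 2 chromosomes had none, with 0 of 11 regions on Y and 0 of 3 on the mitochondrial chromosome. Of the GFP-shared regions on X, 2321 of 2472 were over 50% masked. Of these 2.24% (1.68 to 2.93) had no Cre peak, against 5.49% (5.13 to 5.88) on the autosomes. Among the less masked regions the shares were 11.3% (6.70 to 17.4) on X and 14.1% (13.4 to 14.9) on the autosomes. The nearest GFP-shared neighbour also lacked a Cre peak for 264 of the 1937 regions (13.6%, 12.1 to 15.2), against 6.30% (5.98 to 6.62) of regions with one. In 5 Mb windows with at least 20 GFP-shared regions the median share was 7.50%, and the highest was 47.6% (10 of 21 regions) on chromosome 12 between 105000001 and 110000000. Neighbours and windows share GC content and repeats, whose part was not tested.

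The genes targeted or assayed in the study held none of the regions. *Rtel1* had no peak of either GFP list but 2 of Cre mock and 1 of Cre DOX, *Bcl6* had a Cre DOX peak only, and the endogenous *Rnaseh1* had no peak in any list. *Actb* had a GFP-shared region that overlapped Cre peaks. A peak list cannot show whether *Rtel1* was deleted.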

How the data were processed

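DRIP-seq peak lists of 4 libraries were used, 1 per condition. The 4 inputs were left out, since no peak list goes with them. The authors ran nf-core/chipseq 1.2.1 on single-end reads, aligned them to mm10 with BWA and called peaks with MACS2 in each library. The methods name the pipeline's narrow-peak option, but the deposited lists are in broad-peak format, so the settings behind their widths and scores are uncertain. Their deposited score, their fold enrichment (a ratio to local background) and both significance columns (−log10 of the p-value and of the q-value) come from MACS2 and are not normalised between libraries. Whether inputs served as control is not given in the sources used here.

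Peaks of all scores were merged with Python 3.11.15 and bedtools v2.31.1, with positions counted from 1. Sequence and soft-masked repeats came from GRCm38.p6 and genes from GENCODE M21. Regions with and without a Cre peak were compared on GFP peaks merged without the Cre peaks. Of the listed gene symbols 2 matched no gene. Named regions were the 10 of highest rank, the 10 highest in coding promoters, the 5 genes with most regions, the 3 widest, those nearest the edge of the rule, up to 4 genes of each list and 4 assayed loci, and some genes are named from the same tables beyond these. A region in a coding promoter that the rule named is not reported here. The members and lists were chosen with earlier results of these data known. No test between conditions was made. The interval functions and the rule were tested on simulated data.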

Additional observations from a re-analysis of the deposited data

How the results depend on the processing

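No paired analysis was possible because each condition had 1 library. Peak lists hold no read totals, so what depth limits could not be measured, and the intervals reflect the number of regions alone. The number of regions depended on the threshold. It was 331 with the top decile of scores in every list, 800 with a −log10 q-value minimum of 2, 74 with one of 5 and 92 with top-decile GFP peaks and Cre peaks of any score. It was 760 when the GFP peaks had to overlap by 50% of each, 1214 with no Cre peak within 1 kb, 1244 with none on the same restriction fragment and 1093 with at most 50% of the region masked. With equal numbers of peaks it was 2362, and with the union of all lists as the base 1937.

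The share of GFP-shared regions without a Cre peak was 14.8% for the top decile, 10.2% and 10.1% at −log10 q-values of 2 and 5, 4.12% with top-decile GFP peaks alone and 11.9% with equal numbers of peaks. It was 4.95% with no Cre peak within 1 kb, 5.07% by fragment and 14.1% at most 50% masked.

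In the same order of settings (top decile, q-values of 2 and 5, top-decile GFP peaks alone, overlap of 50%), the share with a predicted G4 was 32.9%, 37.8%, 29.7%, 18.5% and 31.1%. It was 38.8% by fragment, 51.9% at most 50% masked, 21.5% at a G4Hunter score of 2 and 21.01% with the regular expression. The promoter share was 19.3%, 19.9%, 18.9%, 13.0% and 18.4%, then 18.6% by fragment and 33.2% at most 50% masked. Promoters of 500 bp gave 18.2%, of 2 kb 29.4% and coding start sites only 18.02%. The intergenic share was 41.7%, 42.1%, 44.6%, 41.3% and 41.7%, then 41.2% with equal numbers of peaks, 41.9% by fragment, 36.4% with promoters of 2 kb and 23.1% at most 50% masked. Median GC content was 48.5% for the top decile, 48.9% at a q-value of 2, 48.7% with equal numbers, 48.8% with overlap of 50%, 48.8% by fragment and 52.7% at most 50% masked.

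Differences between regions without and with a Cre peak fell on the other side of 0 as follows, and the cause was not tested. That in predicted G4s was −6.99 percentage points for the top decile, −0.0262 and −15.4 at q-values of 2 and 5, −21.3 with top-decile GFP peaks alone, −0.926 with overlap of 50%, −17.9 at most 50% masked and −2.91 with the union as the base. The intervals at a q-value of 2 (−3.51 to 3.56) and with overlap of 50% (−4.26 to 2.58) include 0. The union base was added after the data were seen, as was the limit on masking for all but the intergenic share and GC content. Within classes of width and score it was −4.11 with top-decile GFP peaks alone, −2.75 at most 50% masked and −1.89 with the union as the base. That in promoters was −0.0683 and −1.35 at q-values of 2 and 5, −6.46 with top-decile GFP peaks alone and −19.4 at most 50% masked, of which the first 3 have intervals that include 0 (−2.85 to 2.98, −9.34 to 9.41 and −12.2 to 2.08). At q-values of 2 and 5 it was 4.60 and 0.136 within classes, and −7.09 and −10.9 under the last 2 settings. The intergenic difference was 5.94 at most 50% masked, and within classes 0.657 with top-decile GFP peaks alone and 2.93 at most 50% masked. The difference in median GC content was −1.39 at most 50% masked and stayed positive under the other settings.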
